A study of Homo sapiens with 5 samples.

Results

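Spliceosomal small nuclear RNA (snRNA) genes carried some of the strongest SMAD2 ChIP-seq summits of T47D cells. The 10 genes described here are RNU2-2, RNU4-1, RNU4-2, RNU5A-1, RNU5B-1, RNU5E-1, RNU5F-1, RNU4ATAC, RNU11 and RNU12. They were chosen by the scores and ranks of the summits near them in these same lists. Each was placed by an anchor on hg19 given to the nearest 0.1 kb, and a summit was assigned to a gene if it lay within 2 kb of that anchor. The strongest summits of the 10 genes fell into 9 distinct regions, of 115321 regions in the whole series, because RNU4-1 had no strong summit apart from that of RNU4-2. Since strength chose the genes, scores and ranks are given as a description, with no test.

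T47D cells derive from a human breast cancer of the luminal, estrogen receptor-positive type. SMAD2 is a transcription factor that enters the nucleus after activin A binds its receptors, and palbociclib inhibits the kinases CDK4 and CDK6. In one group (2 libraries), cells received palbociclib at 1 µM for 24 h and activin A at 50 ng/ml for 1.5 h. In the other group (2 libraries), cells received activin A alone at the same dose and time. Chromatin was precipitated with an antibody against SMAD2, and genomic DNA of untreated cells served as the input for peak calling. All cells of the libraries analysed had activin, so no value below shows an effect of activin.

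The spliceosome removes introns from pre-mRNA and is built from snRNAs and proteins. In the major spliceosome, U1 and U2 recognise the 5′ splice site and the branch point, and U4, U5 and U6 join as a complex. A minor spliceosome handles a rare intron class with U11, U12, U4atac and U6atac in place of U1, U2, U4 and U6, while U5 serves both. Most of these genes, including the members here, are transcribed by RNA polymerase II from short, strong promoters of their own. The U6 and U6atac genes, which are not among the members, use RNA polymerase III.

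The palbociclib lists held 62960 and 65207 summits and the activin lists 51535 and 54243. Each summit has a score, read here as −log10 q against the input, which ranks summits within its own list. Median scores were 9.41 and 8.39 in the palbociclib lists and 9.46 and 8.34 in the activin lists. The strongest summits of the members scored from 495 to 1261 over the 4 lists. These lists give no read numbers, so depth is unknown, and no difference in score or rank between lists of different length is read as a change in binding. Whether the replicates came from separate cultures is not stated in the labels, and p-values measure only the spread between these samples, which may be technical.

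All 10 genes had a summit within 2 kb in every list, RNU4-1 by the strong summit of RNU4-2. Of all chained regions, 20.4% held a summit in every list. A chained region joins summits at most 200 bp apart, whereas a gene window reaches 2 kb to either side. The gene count and this share are therefore unlike measures. The strongest summit of each gene ranked 44th or better throughout. At the most distant rank, 44 of 65207 summits for RNU12 in palbociclib replicate 2, the summit lay in the first 0.0675% of its list. Over all chained regions, 0.511% ranked within the first 1000 in every list. Of the 35 regions that ranked within the first 50 in every list, 9 were those of the snRNA genes named here. These shares describe the choice of the genes. The 26 other regions include the second strong summit in the RNU5E-1 window. Further snRNA genes were not looked up among these regions, so they may include such genes. The first rank went to a member in both activin lists and in neither palbociclib list, where the best member ranked 2nd.

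**Figure D1:**
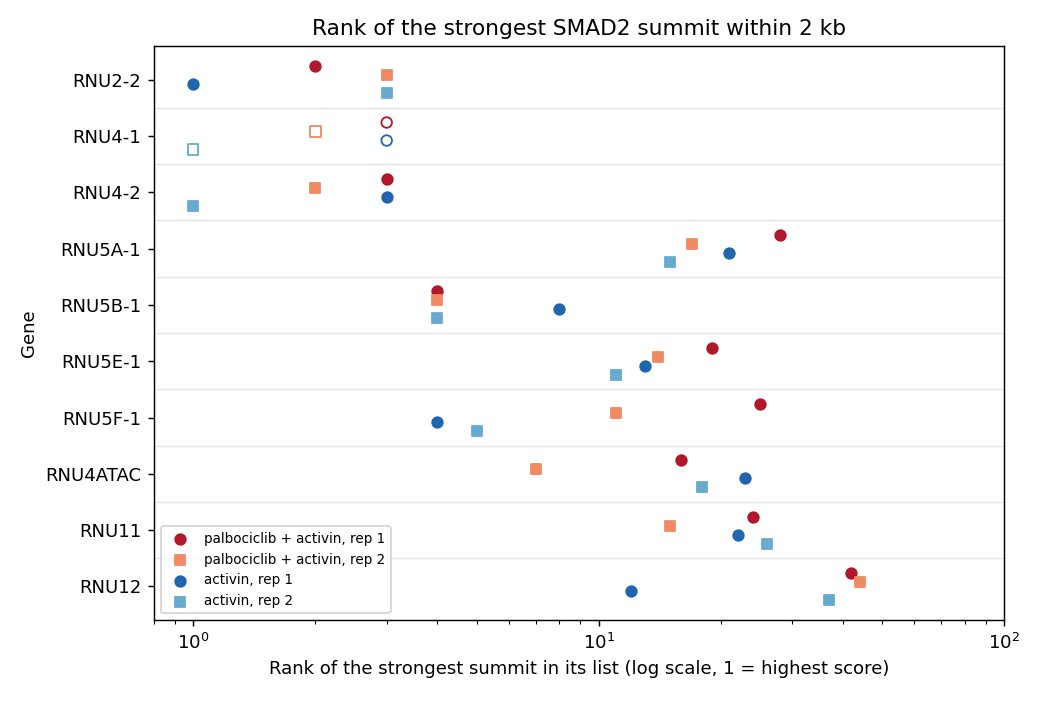
Rank of the strongest SMAD2 summit within 2 kb of each gene (horizontal log axis, 1 is the highest score of the list) in 2 palbociclib plus activin libraries (red) and 2 activin libraries (blue). Open symbols on the RNU4-1 line are the summit of RNU4-2 seen from the neighbouring anchor. RNU2-2 and RNU4-2 lie at ranks 1 to 3 in every list, and RNU12 lies at 42 and 44 after palbociclib and at 12 and 37 with activin alone.

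RNU2-2 encodes a U2 snRNA, and RefSeq places it within the span of WDR74. Its summit lay on chromosome 11 at 62609034 and 62609067 in palbociclib replicates 1 and 2, and at 62609004 and 62609045 in activin replicates 1 and 2. It ranked 2 and 3 in the palbociclib lists, with scores of 1261 and 999, and 1 and 3 in the activin lists, with scores of 1046 and 973. RNU2-2 led the members in both replicate 1 lists and RNU4-2 in both replicate 2 lists. A further summit lay just beyond the 2 kb limit, at −2077 bp from the anchor in palbociclib replicate 1 (rank 958, score 233) and at −2080 bp in activin replicate 1 (rank 1109, score 142). Neither replicate 2 list held a summit between 2 and 2.1 kb on that side. This site was listed by replicate number and not by treatment. The lists give no peak widths, so its absence from a list does not show a lack of SMAD2 there. Just inside the limit, the outermost summits were weak, at 1998 bp for RNU4-2 in palbociclib replicate 1 (score 6.19) and 1952 bp for RNU12 in the same library (score 3.86).

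RNU4-1 and RNU4-2 encode near-identical U4 snRNAs, which pair with U6 and hold it inactive until the spliceosome is activated. In RefSeq both lie next to each other at SIRT4. The anchors are 1.3 kb apart on chromosome 12, so the windows overlap. One strong summit served both genes, at 120729474 and 120729504 in the palbociclib replicates and at 120729496 and 120729443 in the activin replicates. It ranked 3 and 2 in the palbociclib lists (scores 1163 and 1079) and 3 and 1 in the activin lists (scores 959 and 1109). This summit lay between −157 and −96 bp from the RNU4-2 anchor and between −1457 and −1396 bp from that of RNU4-1. Within 1 kb of RNU4-1, a single weak summit was listed, in palbociclib replicate 1 at 698 bp above the anchor (score 6.19, rank 42287). The other 3 lists had none there. The lists give no peak widths, so a missing summit does not show a lack of SMAD2 at RNU4-1. How reads that match both gene copies were placed is not given in the sources used here, and its part in this difference was not tested. The same limit touches the RNU2-2 and U5 genes, which have copies elsewhere.

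The U5 snRNA, which holds the exons in place for ligation, was represented by 4 genes. RNU5B-1 was the strongest of them in both palbociclib lists and in activin replicate 2, with ranks of 4 and 4 after palbociclib and 8 and 4 with activin alone. Its summit lay on chromosome 15 at 65597213 and 65597249 after palbociclib and at 65597214 and 65597208 with activin alone. The neighbouring RNU5A-1 had its summit at 65588469 and 65588495 after palbociclib and at 65588487 and 65588478 with activin alone. It was weaker than RNU5B-1 in every list, ranking 28 and 17 in the palbociclib lists and 21 and 15 in the activin lists. All 4 lists held a second, weak summit 1818 to 1948 bp above the RNU5A-1 anchor, with scores of 7.92 and 13.9 after palbociclib and 3.84 and 5.36 with activin alone. RNU5B-1 had a weak companion only in palbociclib replicate 2, at 1397 bp (score 4.8).

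RNU5E-1 was flanked by another strong summit. The summit nearest the gene lay on chromosome 1 at 11968410 and 11968388 in the palbociclib lists (ranks 19 and 14) and at 11968411 and 11968430 in the activin lists (ranks 13 and 11). The companion lay at 11969845 and 11969865 (ranks 31 and 33) after palbociclib and at 11969879 and 11969835 (ranks 24 and 21) with activin alone. The companion was thus 1405 to 1477 bp away and scored lower within every list, by 80.9 and 112 in the palbociclib lists and by 75.3 and 124 in the activin lists. In RefSeq, the next gene on that side is the U5 pseudogene RNU5E-4P. Its own place on hg19 was not used here, so the companion is not assigned to it. Of the 589 regions ranked within the first 1000 in every list, these 2 regions were the only ones with a further summit of that rank within 2 kb in every library.

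RNU5F-1, which RefSeq places within ARMH1, had a single summit within 5 kb in each list. It lay on chromosome 1 at 45187404 in both palbociclib lists and at 45187382 and 45187386 in the activin lists. Ranks were 25 and 11 after palbociclib and 4 and 5 with activin alone. The next summit lay on the higher-coordinate side at 9327 and 9328 bp after palbociclib and at 9338 and 9358 bp with activin alone. It was strong itself, ranking 48 and 41 in the palbociclib lists and 30 and 51 in the activin lists. RNU5D-1, a further U5 gene, is the next gene on that side in RefSeq, and the summit is likewise not assigned to it. In each list, therefore, the summits of RNU5E-1 and RNU5F-1 and those of the adjacent RNU5A-1 and RNU5B-1 had another summit ranked within the first 51 less than 10 kb away. Both limits were set by the values of these genes. The share of other regions with such a neighbour was not computed, so this is not read as a trait of U5 genes.

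The 3 genes of the minor spliceosome ranked between 7 and 44 in the lists, behind RNU2-2, RNU4-2 and RNU5B-1 in each list. Their order against RNU5A-1, RNU5E-1 and RNU5F-1 varied. RNU4ATAC ranked ahead of these U5 genes in both palbociclib lists and behind them in both activin lists. RNU4ATAC encodes U4atac, the counterpart of U4, and lies within CLASP1 in RefSeq. Its summit lay on chromosome 2 at 122288603 and 122288649 after palbociclib (ranks 16 and 7) and at 122288596 and 122288600 with activin alone (ranks 23 and 18). RNU11 encodes U11, which recognises the 5′ splice site of minor introns, and RefSeq places it within TAF12-DT. Its summit lay on chromosome 1 at 28975306 and 28975263 after palbociclib (ranks 24 and 15) and at 28975236 and 28975246 with activin alone (ranks 22 and 26). RNU12 encodes U12, which recognises the branch point of minor introns, and lies between POLDIP3 and CYB5R3 in RefSeq. Its summit lay on chromosome 22 at 43011322 and 43011304 after palbociclib (ranks 42 and 44) and at 43011367 and 43011287 with activin alone (ranks 12 and 37). RNU12 was last of the 9 regions in 3 lists and 5th in activin replicate 1, so its activin libraries differed more from each other than its palbociclib libraries did.

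The strongest summits lay 4 to 249 bp from the anchors, with a median of 104 bp. They lay below the anchor in every list for 3 genes (RNU2-2, RNU4-2 and RNU5F-1) and above it in every list for 5 genes (RNU5A-1, RNU5B-1, RNU5E-1, RNU4ATAC and RNU11). For RNU12 the offsets were 22 and 4 bp after palbociclib and 67 and −13 bp with activin alone, on both sides of the anchor. The anchor itself is rounded, which adds up to 50 bp in either direction. As background, RNU2-2 and RNU4-2 are transcribed from the minus strand and RNU4ATAC from the plus strand. For these 3 genes the summits therefore lay on the 3′ side of the anchor as given. The offset of −33 bp at RNU2-2 in palbociclib replicate 2 is within the rounding. Strands of the other genes are not given here, so this is not read as a trait of snRNA genes. The rule does not say which point of a gene its anchor marks, and no hg19 annotation was used here, so no distance to a start site or a transcript end is given.

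**Figure D2:**
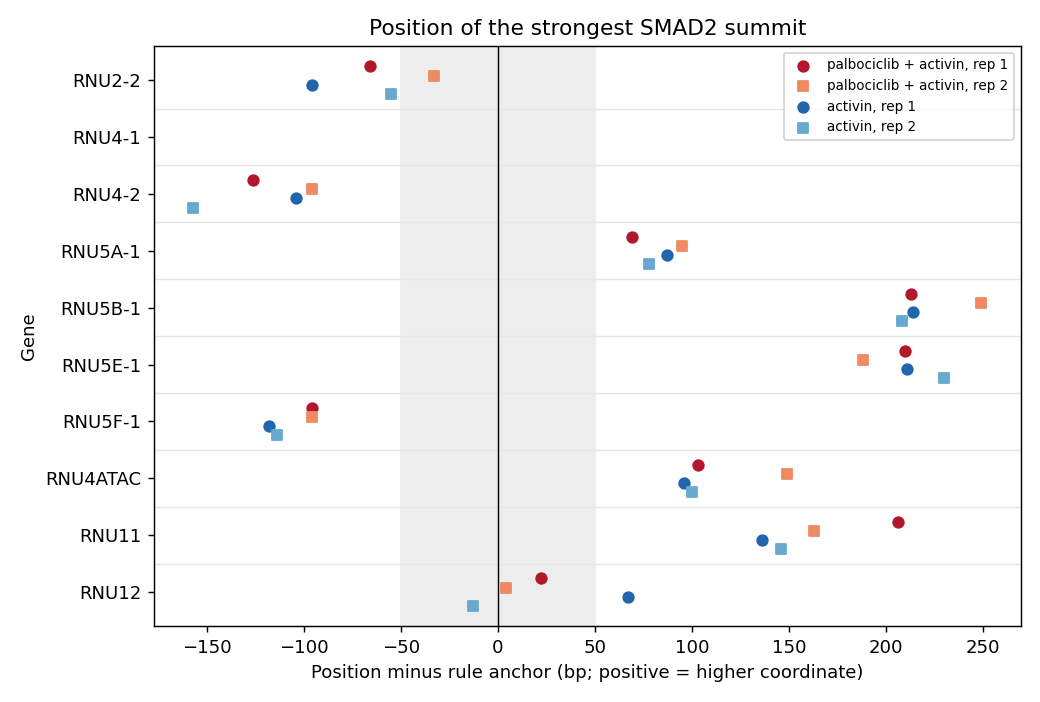
Distance of the strongest summit from the anchor of each gene (horizontal axis in bp, positive towards higher coordinates) in 2 palbociclib plus activin libraries (red) and 2 activin libraries (blue). The grey band marks the 50 bp by which an anchor may be rounded, and RNU4-1, which shares the summit of RNU4-2, is left blank. RNU5F-1 lies at −96 bp in both palbociclib libraries and at −118 and −114 bp in the activin libraries.

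Mean positions of the strongest summits after palbociclib and with activin alone differed by at most 43.5 bp in the 9 regions. The largest difference was at RNU11, where offsets averaged 184.5 ± 30.4 bp after palbociclib and 141 ± 7.07 bp with activin alone (SD, n = 2 each). The exact two-sided permutation test gave p = 0.333. At RNU4ATAC they averaged 126 ± 32.5 bp after palbociclib and 98 ± 2.83 bp with activin alone, a difference of 28 bp (exact permutation p = 0.333). RNU5F-1 had the closest replicates, at −96 ± 0 bp after palbociclib and −116 ± 2.83 bp with activin alone, a difference of 20 bp (exact permutation p = 0.333). RNU5E-1 went the other way, at 199 ± 15.6 bp after palbociclib and 220.5 ± 13.4 bp with activin alone, a difference of −21.5 bp (exact permutation p = 0.333). With 2 against 2 libraries 0.333 is the smallest p the test can give, and adjusted over the 23476 regions found in all lists the smallest value was 1.

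At these 4 of 9 regions the positions of both groups did not overlap, 3 with palbociclib at higher and 1 at lower coordinates. The nearest offsets of a palbociclib and an activin library were 210 and 211 bp at RNU5E-1 and 103 and 100 bp at RNU4ATAC. They were 163 and 146 bp at RNU11 and −96 and −114 bp at RNU5F-1. A separation by any margin was counted, here and over all regions. Over all 23476 regions, 31.2% had separate positions, 15.8% with palbociclib higher and 15.4% lower, and over the 589 strongest regions the figure was 25.1%. Of the 26 other regions ranked within the first 50 in every list, 23.1% had separate positions. The share among the snRNA regions, 44.4%, was above each of these. It rests on 9 regions, too few to tell it from the background. Between libraries of the same replicate number, 5 of the 9 regions moved the same way in both pairs, against 46.9% of all 23476. The count of regions with separate positions was 8 and 5 without palbociclib replicates 1 and 2. It was 7 and 6 without activin replicates 1 and 2. A group left with 1 library separates more easily, and no share over all regions was computed for that setting. These counts are therefore not compared with the 4. With all libraries, the groups overlapped at the other 5 regions. Differences there were 26 bp at RNU2-2, 19.5 bp at RNU4-2, 20 bp at RNU5B-1, −0.5 bp at RNU5A-1 and −14 bp at RNU12.

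The order of the 9 regions by score within each list is given side by side as a description, since scores chose the genes. RNU4ATAC was 4th of 9 in both palbociclib lists, and 9th and 7th in the activin lists. RNU5F-1 was 7th and 5th after palbociclib, and 3rd and 4th with activin alone. RNU11 was 6th and 7th after palbociclib and 8th in both activin lists, and RNU5A-1 was 8th in both palbociclib lists and 7th and 6th with activin alone. At the remaining 5 regions the places of both groups overlapped. Places were separate at 4 of 9 regions. The share was 43.8% of the 589 strongest regions when those were ordered among themselves. Libraries tie more easily over 9 places than over 589, and a tie counts as overlap. The shares are therefore unlike measures, and no excess is read from them. The places of 9 regions are also not independent of each other.

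Weak summits around the genes were few. The member windows held 16 and 12 distinct summits in the palbociclib lists, or 14 ± 2.83, and 11 and 13 in the activin lists, or 12 ± 1.41 (SD, n = 2 each). The groups overlapped, and the difference of 2 was within the SD of the palbociclib libraries. It was 1 with lists of equal length, the palbociclib lists being the longer ones. Each list had 10 of these within its first 50, namely the 9 leading summits and the companion of RNU5E-1. The remainder ranked beyond 1000, numbering 6 and 2 after palbociclib and 1 and 3 with activin alone. Of the 6 in palbociclib replicate 1, 3 surrounded RNU12. For 0 of the 9 regions did both palbociclib libraries hold more summits within 2 kb than both activin libraries, and for 0 fewer. The background was 6.74% for more and 3.33% for fewer. Without palbociclib replicate 1 the difference in totals was 0, and in windows of 1 kb it was −0.5.

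**Figure D3:**
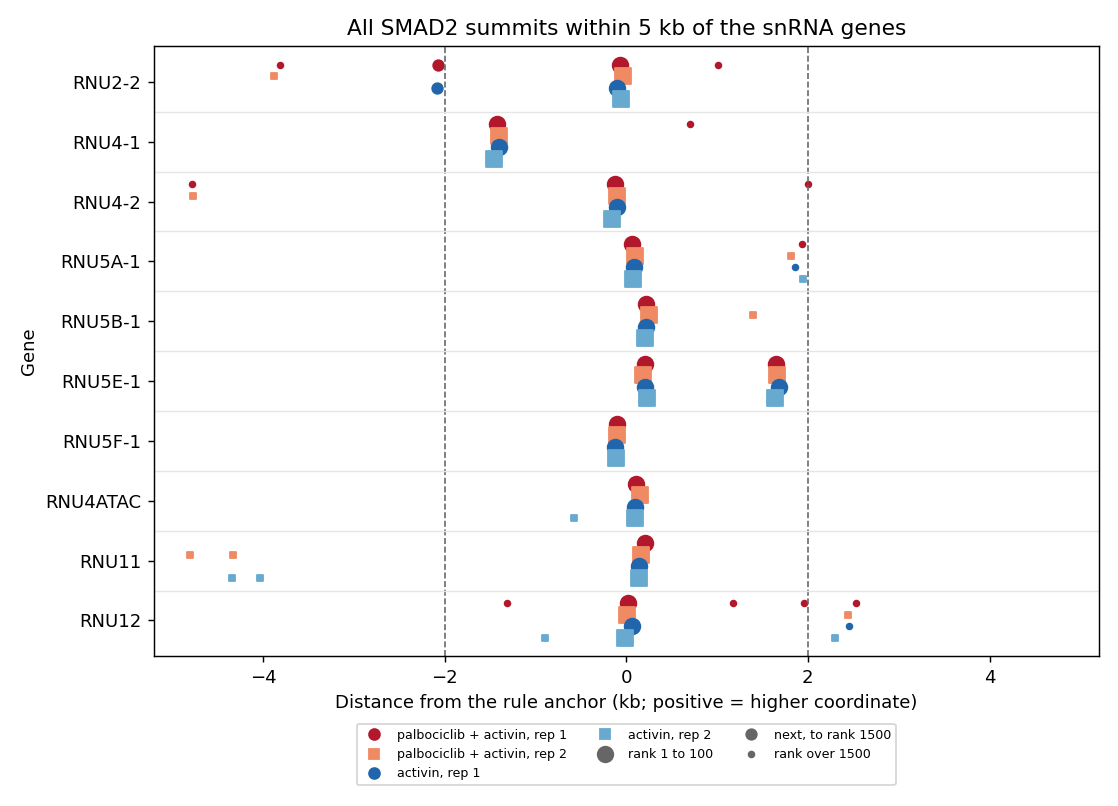
All summits within 5 kb of each anchor (horizontal axis in kb, positive towards higher coordinates), with 2 palbociclib plus activin libraries in red above 2 activin libraries in blue; symbol size gives the rank class, and dashed lines mark the 2 kb limit. RNU5E-1 has a second summit of the highest rank class in all 4 libraries, RNU2-2 has one of the middle class at −2077 and −2080 bp in the replicate 1 libraries, and RNU5F-1 has no other summit in this range.

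Summits near snRNA genes were placed less tightly between libraries than the median strong region. The span from the lowest to the highest of the 4 positions had a median of 53 bp over the 9 regions, between 22 bp at RNU5F-1 and 80 bp at RNU12. Its median was 29 bp over the 589 regions ranked within the first 1000 in every list, and 7 of the 9 snRNA regions lay above that value. The 26 other regions ranked within the first 50 in every list had a median of 35.5 bp and a range of 8 to 101 bp. All 23476 regions had a median of 76 bp. This is a description over regions, which are not replicates, and the ranges overlap widely.

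**Figure D4:**
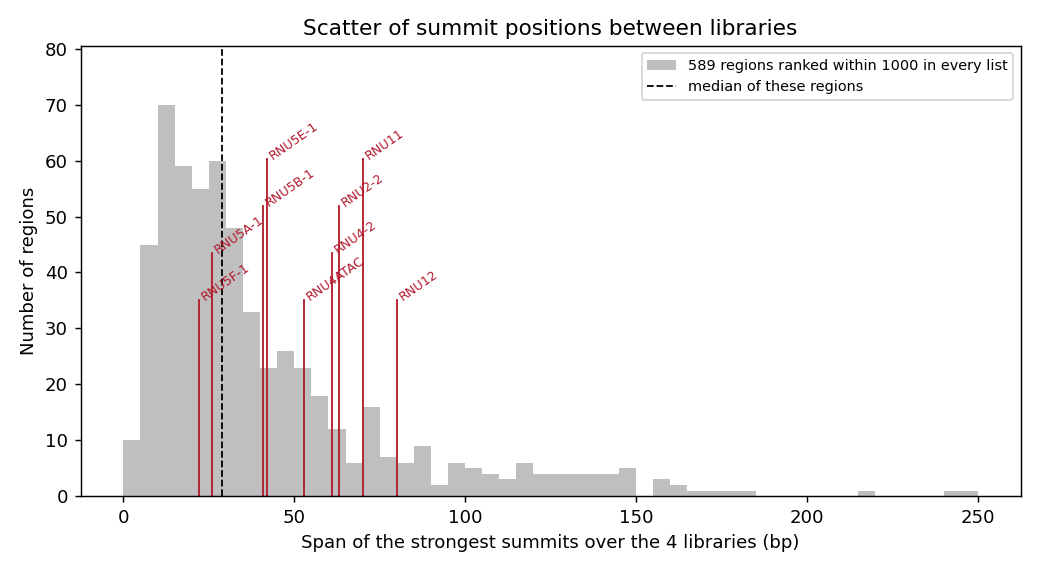
Number of regions (vertical axis) by the span in bp of the strongest summits over the 4 libraries (horizontal axis), for the 589 regions ranked within the first 1000 in every list. Red lines mark the 9 snRNA regions, from 22 bp at RNU5F-1 to 80 bp at RNU12, and the dashed line is the median of 29 bp.

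Counted within 2 kb of the region's own centre, the snRNA regions held a median of 1.25 summits per list. The median was also 1.25 over the 26 other regions ranked within the first 50, 1.75 over the 589 strongest regions and 1.5 over all 23476. No other summit within 2 kb in any list was found for 3 of the 9 snRNA regions (RNU4-2, RNU5F-1 and RNU11), or 33.3%, against 42.3% of the 26, 16.1% of the 589 and 33.0% of the 23476. The distance to the nearest other summit exceeded 5 kb in every list at 1 of the 9 regions, RNU5F-1, or 11.1%. The share was 23.1% of the 26, 9.34% of the 589 and 25.1% of the 23476.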

How the data were processed

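The submitters' processing notes name MACS2 2.0.9, Bowtie 1.1.0, Picard and build hg19. Step order, read filters and the handling of multiply mapped reads are not stated there. The authors deposited 1 summit list per library, called without pooling replicates. The deposited score was read as −log10 q: the lowest score per list was 1.31 to 1.34, and a q of 0.05 gives 1.3. It was used to rank summits within a list.

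Positions are 1-based. Chromosomes 1 to 22 and X were kept, summits at most 200 bp apart over the 4 lists were chained into regions, and each library's highest-scoring summit gave its position. Groups were compared with exact two-sided permutation tests over 4 libraries. The members, gene anchors and comparisons were chosen with earlier results of these data known; all members are named. The separation code was tested on simulated positions and the permutation code on fixed values, whereas the result of chaining was not checked. Gene neighbours and symbols (10 of 10 matched) come from RefSeq on GRCh38.p14, whose coordinates were not used. Promoter sequences and motifs, planned, were not analysed here. Computation used Python 3.11.15, numpy 2.4.6, pandas 2.3.3, scipy 1.17.1 and matplotlib 3.10.9. Alternatives tried were windows of 0.5, 1 and 5 kb, a minimum score of 5, equal list lengths, nearest-gene assignment, nearest summits, all contigs, other rank limits, leave-one-out lists and a replicate block.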

Additional observations from a re-analysis of the deposited data

How the results depend on the processing

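All 10 genes kept a summit in every list, and a rank within the first 1000, with a score of at least 5, at equal list lengths, in a 5 kb window and without each library. In windows of 0.5 and 1 kb, and with each summit given to its nearest gene, 9 did, since RNU4-1 dropped out. Ranks within the first 100 or 10000 and ranks over all contigs also gave 10. The genes were chosen by score and rank, and their strongest summits ranked 44th or better with scores of at least 495. The score, length, wider-window, rank-limit and leave-one-out settings therefore could not remove a gene and are no check on these counts. The difference in summits within the windows (2) was 1 at equal list lengths, 1 with a score of at least 5, 4 in 5 kb, 0 in 0.5 kb and −0.5 in 1 kb, a reversal that comes from counting fewer weak summits, and it ranged from 0 to 4 without each library. Separate positions (4 regions) numbered 4 under the other window, score, length and assignment settings. These settings select the same strongest summits, which lay at most 249 bp from the anchors, so they are no check on this count. The summit nearest to the anchor gave 5, by adding RNU4-1 through its weak summit in palbociclib replicate 1. The count was 5 to 8 without each library, because a group left with 1 library separates more easily. Position differences, rounded to whole bp, turned at RNU5A-1, RNU12 and RNU4-2 when single libraries were left out. RNU5A-1 ranged from −14 to 13 bp, with 13 bp without palbociclib replicate 1 and 4 bp without activin replicate 1. RNU12 ranged from −54 to 26 bp, with 26 bp without activin replicate 1. RNU4-2 ranged from −7 to 46 bp, with −7 bp without activin replicate 2. The other leave-one-out differences kept their sign. Replicate-block mean differences, of positions and of summit totals, equal the main ones by construction. The summit nearest to the anchor was the strongest one at all 9 regions, so its differences were the main ones too. Neither setting could change a sign. With the replicate block, the difference in summits was 2 and 5 of 9 regions moved the same way in both pairs, with a background of 46.9%; position deviations of libraries with the same number were hardly correlated (Spearman coefficient −0.0401 across regions). Chaining gaps of 100 and 500 bp, chosen after seeing the data as was the comparison with regions ranked within 50, left the median span at 53 bp. Unknown depth limits every count of weak summits.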
